A study of Homo sapiens with 6 samples.

Results

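The genes described here carry and regulate signals of the transforming growth factor beta (TGF-beta) and bone morphogenetic protein (BMP) families. They are 37 genes chosen by symbol for their known function, as 8 ligands, 4 latent TGF-beta binding proteins, 10 receptors, 7 SMADs, 4 antagonists and corepressors and 4 target genes, and all 37 were found among the 61806 genes of the deposited table. They were read in 6 poly(A) RNA libraries of HEK293 cells, a line made from human embryonic kidney cells with adenovirus DNA. In the 3 mutant libraries the cells carried rs16851030, a variant of the adenosine A1 receptor gene ADORA1 that had been written in by CRISPR and homology-directed repair. The 3 wild-type libraries came from HEK293 cells without that edit. Cells of both groups were kept in the same medium (DMEM) with fetal bovine serum, and no ligand or inhibitor of the pathway is named in the labels. The labels call the 3 libraries of a group biological replicates. They do not say whether the mutant cells were 1 clone, so the edit and a difference between clones cannot be told apart, and p-values measure the spread between these libraries.

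TGF-beta family ligands are secreted dimers, and the TGF-betas themselves leave the cell in a latent complex that latent TGF-beta binding proteins (LTBPs) tether to fibrillin in the matrix. A freed ligand joins type II and type I receptor kinases, which phosphorylate receptor-activated SMADs: SMAD2 and SMAD3 below TGF-beta and activin, and SMAD1, SMAD5 and SMAD9 below the BMPs. These enter the nucleus with SMAD4, and among the genes they switch on are their own inhibitors, such as SMAD6, SMAD7, BAMBI and SKIL, and the ID genes.

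Counts assigned to genes ranged from 16013460 to 20349609 per library. Levels are given as FPKM, fragments scaled to the gene's exon length and to the library's assigned counts, so that they can be compared between genes. Of 10 genes known from HEK293 or embryonic kidney cells, 8 reached a mean of 1 FPKM. Their summed level was 138.71 to 140.47 FPKM in the mutant and 226.80 to 251.18 FPKM in the wild type, most of it from the filament gene VIM, which lies on chromosome 10. The kidney factor PAX2 stayed at 0.17 to 0.27 FPKM in the mutant and 0.04 to 0.16 FPKM in the wild type. Markers of other cells were low. The 7 fibroblast markers summed to 6.05 to 6.63 FPKM in the mutant and 3.58 to 3.71 FPKM in the wild type, mainly from COL1A1, with DCN at 0 to 0.01 FPKM. The 5 endothelial markers summed to 0.520 to 0.770 FPKM in the mutant and 0.160 to 0.230 FPKM in the wild type, almost all of it KDR. Of the blood markers, PTPRC, HBB and CD3E were listed at 0 FPKM in every library. The part of these marker differences in the results was not tested. In bulk RNA, fewer cells that express a gene and less of its RNA per cell cannot be told apart.

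Of the 37 genes, 31 reached the minimum for testing, a mean of 1 FPKM over the 6 libraries. In edgeR's quasi-likelihood test, adjusted over all 12550 tested genes, 9 of the 31 were higher in the mutant, 10 were lower and 12 did not pass an adjusted p of 0.05. The called share, 61.3%, was near that of all tested genes (58.0%), as were the shares in each direction, since 29.4% of all tested genes were called higher and 28.7% lower. Groups did not overlap for 19 of the 31 (61.3%), against 63.1% of all tested genes. The median log2 fold change of the 31 genes was -0.01 and the median size of it 0.30, beside -0.0007 and 0.25 over all tested genes. As a list, the genes therefore changed about as often as any others. Their directions by role were uneven: among ligands and LTBPs 5 rose and 1 fell, the 3 tested antagonists and corepressors fell while the fourth, FST, was below the minimum, and of the 4 ID genes 2 fell and 1 rose. Most changes were small. Of the 19 called genes, 14 differed by less than 1.5-fold, and 2, BAMBI and LTBP4, by at least 2-fold, a size reached by 4.35% of all tested genes. When FPKM were rescaled to a common total (TPM) and tested with limma, 9 of the 31 genes were higher and 6 lower, so that 60.0% of the called genes were higher, against 47.4% in the main test. The same scaling moved all tested genes alike, with 62.5% of the called genes higher, against 50.6% in the main test.

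**Figure D1:**
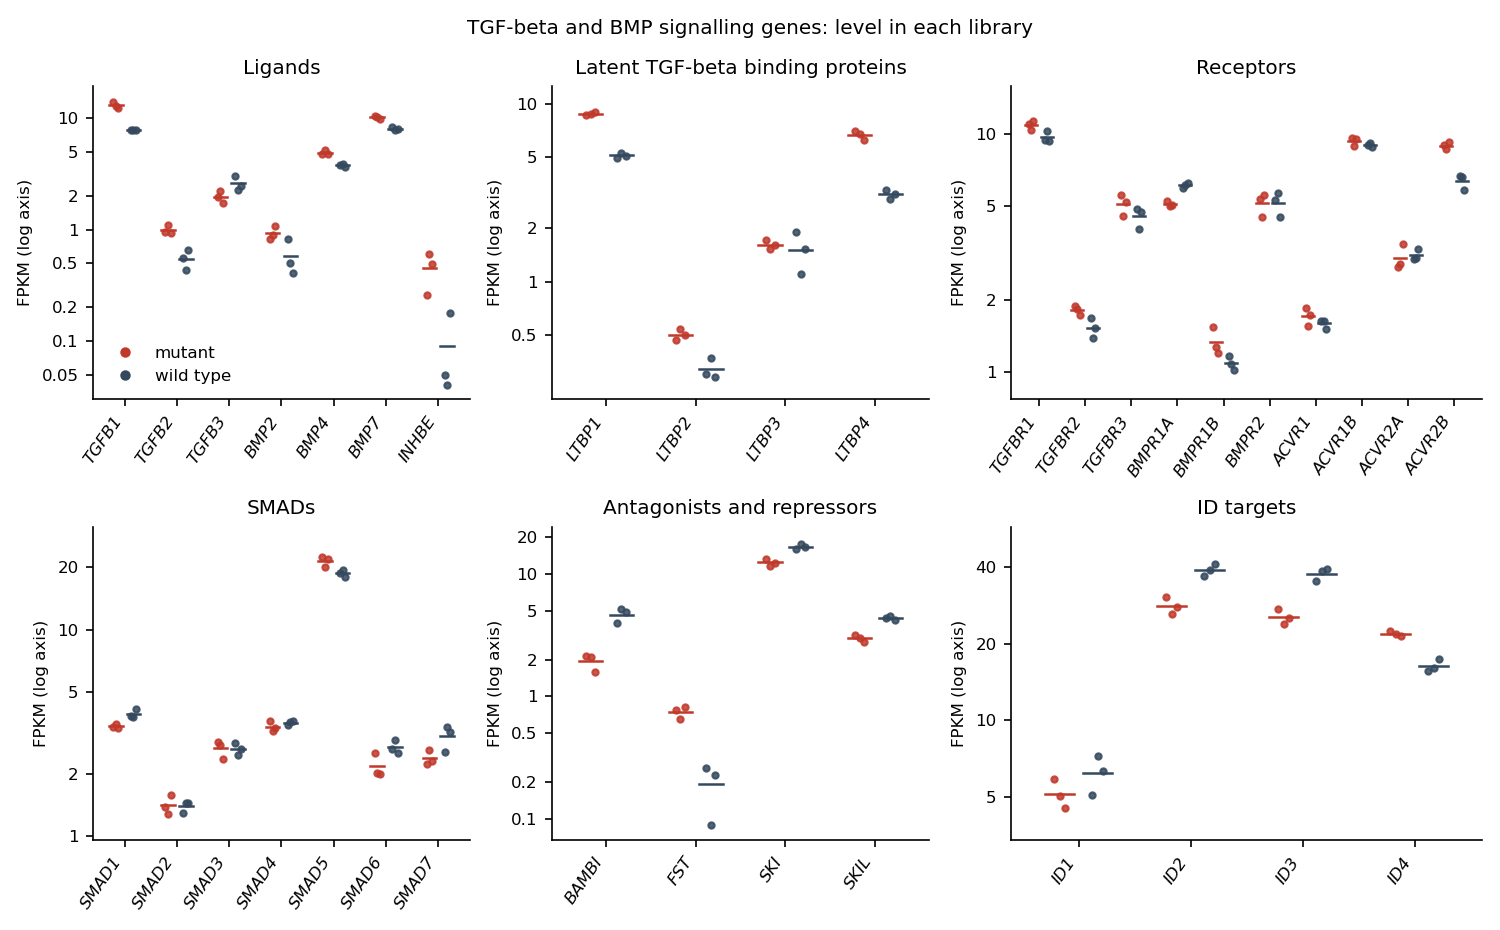
Level of the genes in each library, in FPKM on log axes that differ between panels, with mutant libraries in red on the left and wild-type libraries in dark blue on the right of each gene, and a line at the mean of 3 libraries. INHBA, at 0 to 0.03 FPKM, is left out. The mutant points of TGFB1, LTBP1, LTBP4 and ACVR2B lie above all wild-type points, and those of BAMBI, SKI, SKIL, ID2 and ID3 below them.

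TGFB1, the most abundant TGF-beta ligand gene, rose in the mutant while TGFB3 fell. TGFB1 (ENSG00000105329, GRCh38 chromosome 19, 41301587 to 41353922, minus strand) had 13.90, 12.96 and 12.26 FPKM in the mutant libraries, against 7.80, 7.81 and 7.78 FPKM in the wild-type libraries. The groups did not overlap, and the wild-type libraries were almost identical. The log2 fold change was 0.71 (SE 0.07, adjusted p = 1.40e-07), or 1.64-fold. In GENCODE release 29, 215 exonic bases of TGFB1 overlap HNRNPUL1 on the opposite strand, a gene at 62.6 FPKM in the mutant and 65.4 FPKM in the wild type whose log2 fold change was -0.09. No source used here says whether counting took account of strand, so reads of that stretch cannot be told apart. TGFB3 had 1.96, 2.24 and 1.73 FPKM in the mutant libraries, against 3.03, 2.29 and 2.48 FPKM in the wild-type libraries (log2 fold change -0.43, SE 0.13, adjusted p = 0.00786). Its call was lost with TPM scaling (adjusted p = 0.0677). A single scaling factor per library cannot move the ratio of TGFB1 to TGFB3 within a library. This ratio was 5.79 to 7.09 in the mutant and 2.57 to 3.41 in the wild type.

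BMP7 and BMP4, which encode ligands of the SMAD1 and SMAD5 branch, both rose. BMP7 had 10.4, 10.3 and 9.82 FPKM in the mutant libraries, against 8.42, 7.79 and 8.03 FPKM in the wild-type libraries (log2 fold change 0.30, SE 0.06, adjusted p = 2.99e-04). BMP4 stood at 4.92 ± 0.247 FPKM in the mutant and 3.77 ± 0.0985 FPKM in the wild type (SD, n = 3 each; log2 fold change 0.35, adjusted p = 0.00646). Neither of them had groups that overlapped.

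The other 4 ligand genes, TGFB2, BMP2, INHBA and INHBE, stayed below the minimum and were tested in the same fit without an expression filter, in which 27.3% of 32852 genes were called. TGFB2 had 117, 113 and 90 counts in the mutant libraries and 61, 44 and 70 counts in the wild-type libraries (log2 fold change 0.79, SE 0.18, adjusted p = 6.77e-05). Per length, it stood at 0.997 ± 0.0987 FPKM in the mutant and 0.547 ± 0.111 FPKM in the wild type (SD, n = 3 each), and its groups did not overlap. INHBE, an inhibin beta chain, rested on 16, 31 and 24 counts in the mutant and 3, 2 and 10 counts in the wild type, and rose 4.45-fold (log2 fold change 2.15, adjusted p = 7.97e-06). Without wild-type replicate 3, which held 10 of the 15 wild-type counts, the log2 fold change was 3.11. BMP2 rose by 0.62 on the log2 scale (adjusted p = 0.0249), with 60, 54 and 61 counts in the mutant against 52, 30 and 26 counts in the wild type. The log2 fold change was 0.95 without wild-type replicate 1. The call of BMP2 was lost in 8 of 14 alternatives, among them without mutant replicate 3 (adjusted p = 0.141), wild-type replicate 2 (0.1001) or wild-type replicate 3 (0.230). The calls of TGFB2 and INHBE were each lost in 1 of 15 alternatives. INHBA, the activin A chain, had 15 counts in all 6 libraries, too few to compare.

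Of the LTBP genes, LTBP4 and LTBP1 rose, and they made up most of the family's transcripts. LTBP4 had 7.07, 6.78 and 6.28 FPKM in the mutant libraries, against 3.27, 2.93 and 3.10 FPKM in the wild-type libraries (log2 fold change 1.08, SE 0.07, adjusted p = 7.78e-10). LTBP1 had 8.65, 8.76 and 9.02 FPKM in the mutant and 4.99, 5.32 and 5.08 FPKM in the wild type (log2 fold change 0.75, SE 0.06, adjusted p = 9.05e-09). For both genes the lowest mutant value was above the highest wild-type value. LTBP3 did not pass: it stood at 1.61 ± 0.101 FPKM in the mutant and 1.51 ± 0.396 FPKM in the wild type (SD, n = 3 each), with a log2 fold change of 0.07 and a 95% interval of -0.22 to 0.35. Its wild-type libraries spread from 1.10 to 1.89 FPKM, and without wild-type replicate 2 its log2 fold change was -0.11. LTBP2, which unlike the others does not bind latent TGF-beta, was below the minimum at 0.503 ± 0.0351 FPKM in the mutant and 0.320 ± 0.0436 FPKM in the wild type (SD, n = 3 each), and rose by 0.56 without a filter (adjusted p = 0.0169). That call was lost in 7 of 15 alternatives, among them without mutant replicate 2 (0.0815) or wild-type replicate 3 (0.0753). Summed over the 4 genes, the level was 17.6 ± 0.257 FPKM in the mutant and 10.1 ± 0.368 FPKM in the wild type (SD, n = 3 each).

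Most receptor genes did not pass the test. Of 10, 2 rose, 1 fell and 7 were not called (30% called, against 58.0% of all tested genes). ACVR2B, a type II receptor of activins and BMPs, changed most: it had 8.97, 8.64 and 9.23 FPKM in the mutant libraries, against 6.67, 6.63 and 5.83 FPKM in the wild-type libraries (log2 fold change 0.46, SE 0.05, adjusted p = 1.13e-06). Its relative ACVR2A, at 3.02 ± 0.366 FPKM in the mutant and 3.09 ± 0.177 FPKM in the wild type (SD, n = 3 each), was not called. In GENCODE release 29, 430 exonic bases of ACVR2A overlap ORC4 on the opposite strand. ORC4 stood at 7.63 FPKM in the mutant and 8.78 FPKM in the wild type (log2 fold change -0.23, adjusted p = 6.97e-04). As for TGFB1, reads of the shared stretch cannot be told apart, which limits the ACVR2A level and the ratio given next. The ratio of ACVR2B to ACVR2A was 2.68 to 3.24 in the mutant and 1.77 to 2.25 in the wild type. TGFBR1, the type I receptor of TGF-beta and the most abundant receptor gene, had 11.01, 10.45 and 11.40 FPKM in the mutant and 9.45, 10.3 and 9.36 FPKM in the wild type. Its log2 fold change of 0.14 lay close to the threshold (adjusted p = 0.0363). The call was lost in 8 of 17 alternatives, among them without mutant replicate 1 (0.0883) or 3 (0.158), without wild-type replicate 1 (0.0838) or 3 (0.137), and with the replicate number as a block (0.0539).

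BMPR1A, a type I receptor of BMPs, fell to 5.21, 4.97 and 5.05 FPKM in the mutant libraries, against 5.95, 6.11 and 6.24 FPKM in the wild-type libraries (log2 fold change -0.30, SE 0.06, adjusted p = 2.12e-04). It lies on chromosome 10, whose 492 tested genes had a median log2 fold change of -0.36, and the median of its nearest tested neighbours was -0.18. Its change was smaller in size than the median of its chromosome and larger than that of its neighbours. BMPR1B, the other BMP type I receptor of the same subgroup, was at 1.34 ± 0.180 FPKM in the mutant and 1.09 ± 0.0702 FPKM in the wild type (SD, n = 3 each), and did not pass (log2 fold change 0.28, 95% interval -0.01 to 0.56). TGFBR2, the type II receptor of TGF-beta, had 1.89, 1.83 and 1.73 FPKM in the mutant and 1.68, 1.38 and 1.52 FPKM in the wild type. Its groups did not overlap but it was not called (adjusted p = 0.103), except without wild-type replicate 1 (0.0436). The coreceptor TGFBR3, or betaglycan, was likewise called only without mutant replicate 2 (0.0404, against 0.147 with all libraries), at 5.08 ± 0.529 FPKM in the mutant and 4.51 ± 0.456 FPKM in the wild type (SD, n = 3 each). BMPR2, ACVR1 and ACVR1B had log2 fold changes of -0.04, 0.07 and 0.02. Over all roles, 11 of the 12 tested genes that were not called had a 95% interval that excluded a 1.5-fold difference in either direction, the exception being ID1.

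**Figure D2:**
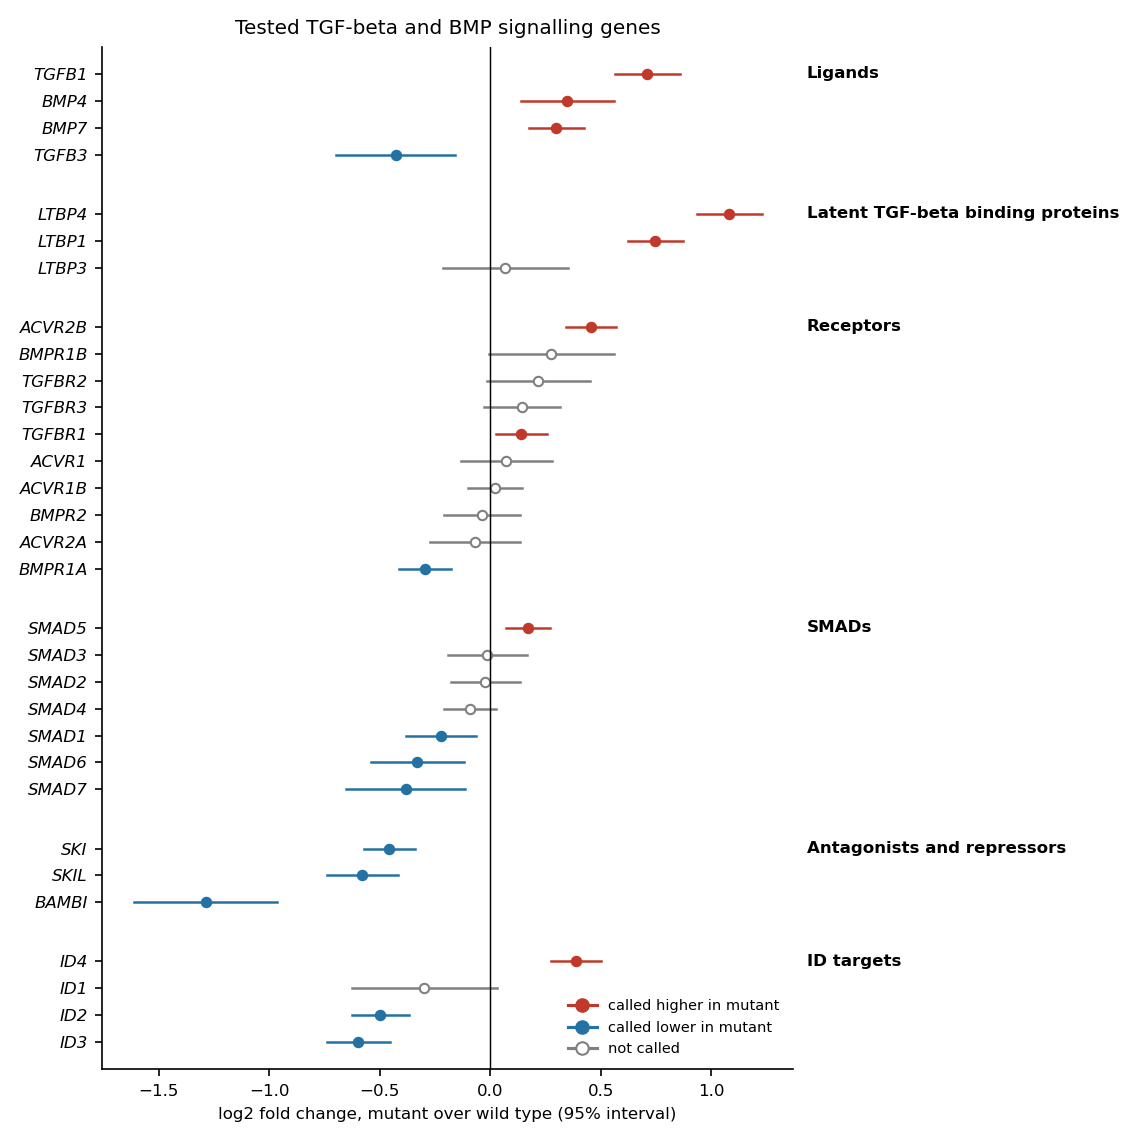
Log2 fold change of the 31 tested genes, mutant over wild type, on the horizontal axis with its 95% interval from the quasi-likelihood fit, grouped by role. Filled red and blue points passed an adjusted p of 0.05 over all tested genes and open grey points did not. Ligands and LTBPs lie mostly to the right of 0, and the 3 antagonists and corepressors to its left.

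Among the SMADs, the inhibitory SMAD6 and SMAD7 and the BMP-activated SMAD1 fell, SMAD5 rose, and SMAD2, SMAD3 and SMAD4 were not called. SMAD5 was the most abundant SMAD gene. It had 22.49, 20.13 and 21.95 FPKM in the mutant libraries, against 18.8, 19.3 and 18.0 FPKM in the wild-type libraries (log2 fold change 0.17, SE 0.05, adjusted p = 0.00496). SMAD1 changed the other way, with 3.39, 3.50 and 3.35 FPKM in the mutant against 3.82, 3.76 and 4.11 FPKM in the wild type (log2 fold change -0.22, adjusted p = 0.0165). The ratio of SMAD5 to SMAD1 was 5.75 to 6.63 in the mutant and 4.38 to 5.14 in the wild type. The call of SMAD1 was lost with TPM scaling (adjusted p = 0.106) and without mutant replicate 3 (0.0577) or wild-type replicate 3 (0.0762). SMAD2, SMAD3 and SMAD4 had log2 fold changes of -0.02, -0.01 and -0.09, with 95% intervals of -0.18 to 0.13, -0.19 to 0.16 and -0.21 to 0.02.

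SMAD6, which blocks BMP-activated SMADs, had 2.53, 2.01 and 2.00 FPKM in the mutant libraries, against 2.63, 2.93 and 2.52 FPKM in the wild-type libraries. SMAD7, which blocks activated receptors of both branches, had 2.24, 2.60 and 2.31 FPKM in the mutant and 2.56, 3.37 and 3.20 FPKM in the wild type. For both genes the highest mutant library reached into the wild-type range. The log2 fold changes were -0.33 (SE 0.10, adjusted p = 0.00952) for SMAD6 and -0.38 (SE 0.13, adjusted p = 0.0155) for SMAD7. The call of SMAD6 was lost without mutant replicate 2 (0.0521) or 3 (0.0521) or wild-type replicate 2 (0.0518), in limma on log2(FPKM + 1) (0.0642) and log2(FPKM + 0.1) (0.0641), and with TPM scaling (0.110). The call of SMAD7 was lost without mutant replicate 1 (0.0686), without wild-type replicate 2 (0.0734) or 3 (0.0537), and with TPM scaling (0.0624).

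BAMBI had the largest fall of the tested genes described here. It encodes a membrane protein built like a type I receptor without a kinase domain, which blocks signalling at the receptor. BAMBI (ENSG00000095739, GRCh38 chromosome 10, 28677510 to 28682932, plus strand) had 2.14, 2.08 and 1.58 FPKM in the mutant libraries, against 3.99, 5.13 and 4.85 FPKM in the wild-type libraries. Every mutant value was below every wild-type value. The log2 fold change was -1.29 (SE 0.15, 95% interval -1.61 to -0.96, adjusted p = 1.45e-06), which is 0.409 of the wild-type level. It shares chromosome 10 with BMPR1A, and the median of its nearest tested neighbours was -0.37, so that its interval lay wholly below that of its surroundings. Within a library, the ratio of BAMBI to BMPR1A was 0.313 to 0.418 in the mutant and 0.671 to 0.840 in the wild type.

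SKI and SKIL (SnoN), related corepressors that bind SMAD complexes on DNA, fell as well. SKI, the more abundant, had 13.35, 11.61 and 12.37 FPKM in the mutant libraries, against 16.1, 17.4 and 16.7 FPKM in the wild-type libraries (log2 fold change -0.46, SE 0.05, adjusted p = 1.38e-06). SKIL had 3.18, 3.01 and 2.79 FPKM in the mutant and 4.40, 4.56 and 4.19 FPKM in the wild type (log2 fold change -0.58, SE 0.08, adjusted p = 3.95e-06). The groups of neither gene overlapped, and the ratio of SKI to SKIL was 3.86 to 4.43 in the mutant and 3.66 to 3.98 in the wild type. FST, or follistatin, the secreted activin-binding protein counted with the antagonists, was below the minimum and went the other way. It had 43, 30 and 36 counts in the mutant libraries and 13, 4 and 11 counts in the wild-type libraries, and rose 3.64-fold in the fit without a filter (log2 fold change 1.86, SE 0.34, adjusted p = 4.73e-07).

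The stretches of 250 bases before the transcription start of 5 of these genes are shown, from RefSeq on GRCh38.p14. They read 5′ to 3′ in the direction of transcription. BAMBI, SMAD6 and SKIL are inhibitors that were called lower, and ID3 and ID4 are related genes that went opposite ways. SMAD7 and SKI, inhibitors that were called lower too, are not shown. Capitals mark GGCGCC, a GC-rich element that SMAD1 and SMAD5 are known to bind, and GTCTAGAC, the palindromic element of SMAD3 and SMAD4. Both read the same on either strand and they do not overlap each other.
BAMBI (chr10:28677271-28677520, plus strand): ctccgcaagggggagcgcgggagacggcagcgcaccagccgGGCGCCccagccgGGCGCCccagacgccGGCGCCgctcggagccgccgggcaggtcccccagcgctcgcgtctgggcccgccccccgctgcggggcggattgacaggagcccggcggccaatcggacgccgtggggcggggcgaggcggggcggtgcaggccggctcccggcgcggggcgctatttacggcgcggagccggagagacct
SMAD6 (chr15:66701986-66702235, plus strand): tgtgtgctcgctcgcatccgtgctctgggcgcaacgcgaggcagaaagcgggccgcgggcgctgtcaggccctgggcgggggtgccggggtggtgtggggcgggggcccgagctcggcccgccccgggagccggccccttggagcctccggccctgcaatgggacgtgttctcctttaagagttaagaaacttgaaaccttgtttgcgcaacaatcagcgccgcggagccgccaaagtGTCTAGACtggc
SKIL (chr3:170357465-170357714, plus strand): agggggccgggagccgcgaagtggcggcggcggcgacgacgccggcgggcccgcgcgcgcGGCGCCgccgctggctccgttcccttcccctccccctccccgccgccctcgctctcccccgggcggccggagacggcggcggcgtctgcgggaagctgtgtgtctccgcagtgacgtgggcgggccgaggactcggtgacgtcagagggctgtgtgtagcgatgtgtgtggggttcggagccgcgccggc
ID3 (chr1:23559502-23559751, minus strand): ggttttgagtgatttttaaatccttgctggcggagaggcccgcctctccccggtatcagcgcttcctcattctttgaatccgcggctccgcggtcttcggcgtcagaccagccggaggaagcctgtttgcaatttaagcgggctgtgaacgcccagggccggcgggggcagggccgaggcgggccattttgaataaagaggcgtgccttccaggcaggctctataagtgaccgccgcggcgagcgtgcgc
ID4 (chr6:19837120-19837369, plus strand): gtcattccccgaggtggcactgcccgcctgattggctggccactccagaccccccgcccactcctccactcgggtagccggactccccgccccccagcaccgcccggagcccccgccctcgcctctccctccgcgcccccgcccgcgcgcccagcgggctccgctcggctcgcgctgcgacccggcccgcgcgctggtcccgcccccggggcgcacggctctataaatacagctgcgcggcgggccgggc
BAMBI held 3 copies of GGCGCC, beginning 209, 196 and 181 bases before the start, and SKIL held 1 at 190 bases. SMAD6 held GTCTAGAC 12 bases before its start. Neither motif occurred in these letters of ID3 or ID4. In RefSeq windows of 250 bases before to 50 after a start, found for 33 of the 37 genes, GGCGCC occurred in 16 of 64 windows (25.0%), against 19.2% of 35116 windows of all genes, and at least 3 copies in 0.871% of all windows. Counted per gene, 14 of the 33 genes held it in any window (42.4%), against 6011 of all 27305 genes; the 33 genes had 1.94 windows per gene and all genes 1.29. ACVR1B, which was not called, held 4 copies in 1 window. GTCTAGAC occurred in 1 of the 64 windows and in 0.202% of all windows. SMAD7 held neither motif in any of its windows, and SKI was not among the 33 genes. Stretches before a start differ in base composition, from 62.0% G and C for ID3 to 81.2% for BAMBI, and a match describes the letters only.

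The ID genes encode helix-loop-helix proteins without a DNA-binding region, which hold back basic helix-loop-helix factors, and are classic BMP targets. ID2 and ID3 fell and ID4 rose. ID3 (ENSG00000117318, GRCh38 chromosome 1, 23557926 to 23559501, minus strand) had 27.36, 23.98 and 25.21 FPKM in the mutant libraries, against 35.2, 38.8 and 39.5 FPKM in the wild-type libraries (log2 fold change -0.60, SE 0.07, adjusted p = 7.16e-07). ID2 (ENSG00000115738, GRCh38 chromosome 2, 8678845 to 8684461, plus strand) had 30.6, 26.1 and 28.0 FPKM in the mutant and 36.9, 38.9 and 41.4 FPKM in the wild type (log2 fold change -0.50, SE 0.06, adjusted p = 1.91e-06). ID4 (ENSG00000172201, GRCh38 chromosome 6, 19837370 to 19842197, plus strand) had 22.5, 21.8 and 21.5 FPKM in the mutant and 15.7, 16.1 and 17.4 FPKM in the wild type (log2 fold change 0.39, SE 0.05, adjusted p = 7.20e-06). None of these 3 genes had groups that overlapped, and each was called in the same direction under every alternative tried.

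ID1, the least abundant of the family, had 5.86, 5.01 and 4.51 FPKM in the mutant libraries, against 5.06, 7.26 and 6.31 FPKM in the wild-type libraries. It was not called (log2 fold change -0.30, 95% interval -0.63 to 0.03, adjusted p = 0.110), and its groups overlapped through wild-type replicate 1, without which it was called (-0.43, adjusted p = 0.0219). It lies on chromosome 20, and its nearest tested neighbours had a median of -0.16. ID1 to ID4 together summed to 80.8 ± 4.85 FPKM in the mutant and 99.5 ± 6.04 FPKM in the wild type (SD, n = 3 each). ID4 supplied 27.2 ± 1.15% of that sum in the mutant and 16.5 ± 0.509% in the wild type, and ID3 supplied 31.6 ± 0.346% in the mutant and 38.0 ± 0.335% in the wild type (SD, n = 3 each). The ratio of ID4 to ID3 was 0.821 to 0.910 in the mutant and 0.414 to 0.445 in the wild type. It does not depend on a single scaling factor per library.

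**Figure D3:**
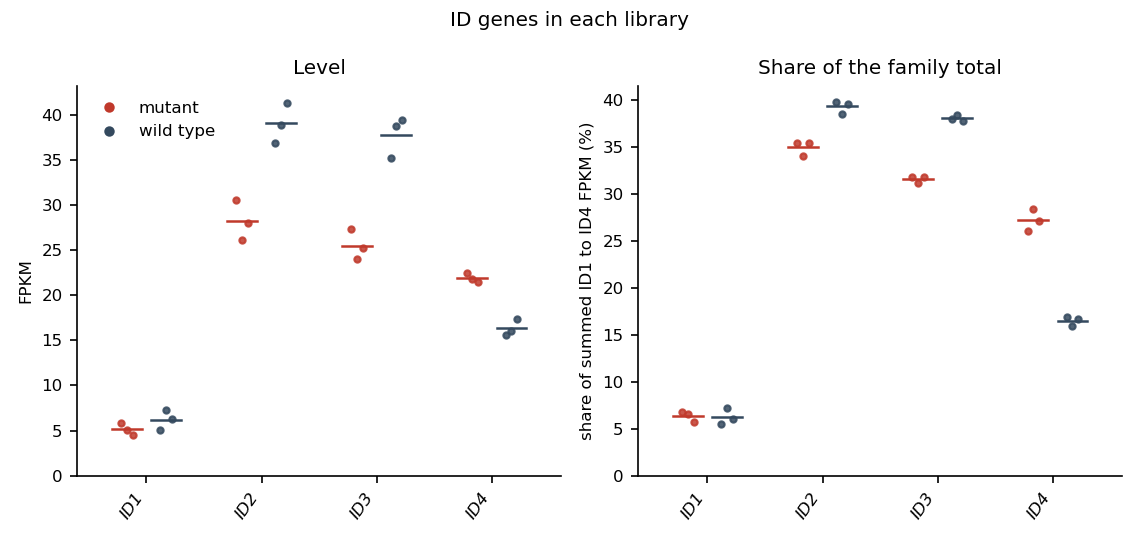
ID genes in each library: the level in FPKM (left) and the share of the summed FPKM of ID1 to ID4 in percent (right), with mutant libraries in red on the left and wild-type libraries in dark blue on the right of each gene and a line at the mean of 3 libraries. ID4 makes up 26.1 to 28.4% of the family's sum in the mutant and 15.9 to 16.9% in the wild type.

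Chromosomes 10, 16, 20 and 22 had median log2 fold changes of -0.36, 0.29, -0.13 and -0.16 over their tested genes. These medians do not say that a chromosome changed evenly. On chromosome 20, the nearest tested neighbours had a median of -0.56 at FKBP1A, a gene of the wider list below, and -0.16 at ID1. Of the tested genes described here, BAMBI and BMPR1A lie on chromosome 10 and BMP7 and ID1 on chromosome 20, and none lies on chromosome 16 or 22. BMP7 rose by 0.30 where its neighbours had a median of -0.02. Without all genes of these 4 chromosomes, 27 genes were tested, of which 8 rose and 8 fell.

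**Figure D4:**
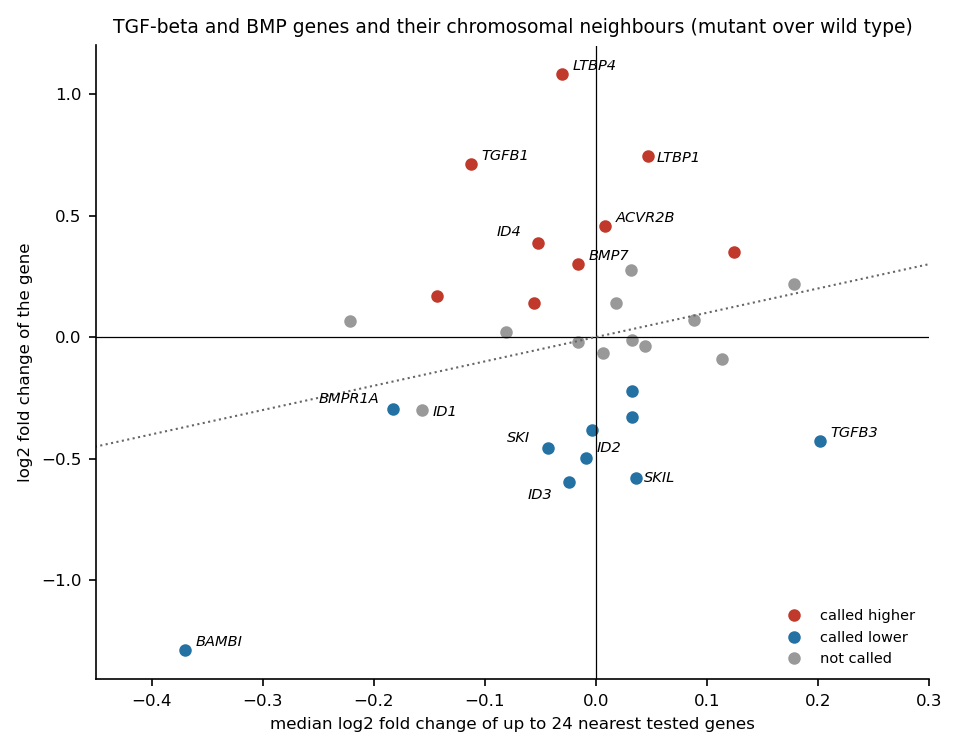
Log2 fold change of each tested gene (vertical axis) against the median log2 fold change of up to 24 nearest tested genes on its chromosome (horizontal axis), mutant over wild type, with a dotted line where both are equal. BAMBI lies well below that line, BMPR1A and ID1 lie near it, and LTBP4, LTBP1 and TGFB1 lie far above it.

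A further 78 genes of the same pathways were listed by function. Of the 46 that reached the minimum, 21 rose, 9 fell and 16 were not called (65.2% called, against 58.0% of all tested genes, with a median log2 fold change of 0.14). These counts include SOSTDC1, NOG, GDF10 and TGIF1, which reached the minimum through the mutant or the wild type alone and are no support for a direction. The secreted inhibitors SOSTDC1 and NOG had the largest rises. SOSTDC1, an inhibitor of BMP and WNT ligands, had 2.13, 2.07 and 2.37 FPKM in the mutant libraries, against 0.720, 0.620 and 0.750 FPKM in the wild-type libraries (log2 fold change 1.61, SE 0.19, adjusted p = 1.03e-06). NOG, or noggin, stood at 2.38 ± 0.239 FPKM in the mutant and 0.890 ± 0.289 FPKM in the wild type (SD, n = 3 each; log2 fold change 1.38, SE 0.22). CHRDL1, related to chordin, rose by 0.82 (adjusted p = 1.30e-04). Of the 8 antagonist genes tested on this list, 5 rose, 1 fell and 2 were not called; the others that rose were FSTL1 (0.72) and NBL1 (0.38), and SMOC1 fell by 0.26 on the log2 scale, these 3 being named after their values were seen. SOSTDC1 and NOG averaged under 1 FPKM in the wild type and reached the minimum only through the mutant, so they had to be higher there, and the count of rises is not support for a direction. Below the minimum, CHRD, or chordin, rose by 1.23 on the log2 scale in the fit without a filter, also named after its values were seen. PMEPA1, a membrane antagonist of TGF-beta signalling below the minimum, had a log2 fold change of 0.16 in that fit and was not called.

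Of 9 listed genes that hold or free latent TGF-beta, 4 were tested and all 4 rose, where 29.4% of all tested genes were called higher; the other 5 were below the minimum. FBN1, fibrillin 1, had 2.96, 2.74 and 2.96 FPKM in the mutant libraries, against 1.15, 1.26 and 1.11 FPKM in the wild-type libraries (log2 fold change 1.27, SE 0.07, adjusted p = 1.36e-10). The other 3 tested genes of this role also rose: FBN2 (0.37), FURIN (0.35), which cleaves ligand precursors, and ITGAV (0.32), an integrin chain that takes part in freeing TGF-beta. They are named after their values were seen. Below the minimum, THBS1, DCN and NRROS were not called in the fit without a filter.

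BMP6 had the largest rise among the tested ligand genes of the wider list, with 7.99, 6.73 and 7.74 FPKM in the mutant libraries, against 3.77, 2.91 and 2.71 FPKM in the wild-type libraries (log2 fold change 1.22, SE 0.11, adjusted p = 5.21e-08). It supplied 31.8 ± 2.33% of the summed FPKM of BMP2, BMP4, BMP6 and BMP7 in the mutant and 20.02 ± 2.15% in the wild type, and that sum was 23.5 ± 0.454 FPKM in the mutant and 15.6 ± 1.09 FPKM in the wild type (SD, n = 3 each). GDF10 rose by 1.11 (SE 0.25, adjusted p = 8.84e-04), on chromosome 10, at levels of 2.33, 1.71 and 2.17 FPKM in the mutant and 1.33, 0.470 and 1.01 FPKM in the wild type, whose mean was under the minimum. GDF10 reached the minimum only through the mutant, so it had to be higher there and is no support for a direction. BMP8B rose (0.58) while its near-identical copy BMP8A was lower without a filter (-0.85), so that both values are uncertain, since reads of such copies can be assigned to either. AMH, whose product acts through the same SMADs as BMPs, fell by 0.78 on the log2 scale. BMP8B, BMP8A and AMH are named after their values were seen.

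Target genes of the wider list moved in both directions, with 5 of 10 tested higher, 2 lower and 3 not called. The called share of these 10 was 70%, against 58.0% of all tested genes. SNAI2, a transcription factor of mesenchymal cells, had 61.1, 62.3 and 61.4 FPKM in the mutant libraries, against 26.7, 28.1 and 29.4 FPKM in the wild-type libraries (log2 fold change 1.10, SE 0.05, adjusted p = 2.93e-12). CDKN2B, a cell cycle inhibitor induced by TGF-beta, fell to 1.67 ± 0.292 FPKM in the mutant, against 2.88 ± 0.321 FPKM in the wild type (SD, n = 3 each; log2 fold change -0.81, SE 0.14, adjusted p = 8.26e-05). KLF10, an early TGF-beta response gene, rose by 0.73 on the log2 scale. HEY1 (0.35), CCN2 (0.37) and CDKN1A (0.26) rose too, and GADD45B fell by 0.63 on the log2 scale; these 5 are named after their values were seen. TGFBI, a gene named for its induction by TGF-beta, had at most 0.04 FPKM in any library and is named after its values were seen. Among SMAD9 and the SMAD regulators, 14 genes in all, 2 rose, 5 fell and 7 were not called (50% called). All 7 called ones are named after their values were seen. Those that fell were the corepressor TGIF1 (-0.61), the deubiquitinase USP15 (-0.53), FKBP1A (-0.50), STRAP (-0.18) and the ubiquitin ligase SMURF2 (-0.17). Those that rose were SMAD9 (0.32) and the kinase gene MAP3K7 (0.14). TGIF1 averaged 0.983 FPKM in the mutant and 1.47 FPKM in the wild type. It reached the minimum only through the wild type, so it had to be lower in the mutant and is no support for a direction. FKBP1A, which binds type I receptors, lies on chromosome 20, where its nearest tested neighbours had a median log2 fold change of -0.56. The deposited pathway term for TGF-beta signalling holds 31 of the 37 genes. Of its 72 tested genes, 22 were higher, 21 lower and 29 not called, with a median log2 fold change of -0.01. Over all tested genes, 29.4% were called higher and 28.7% lower.

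**Figure D5:**
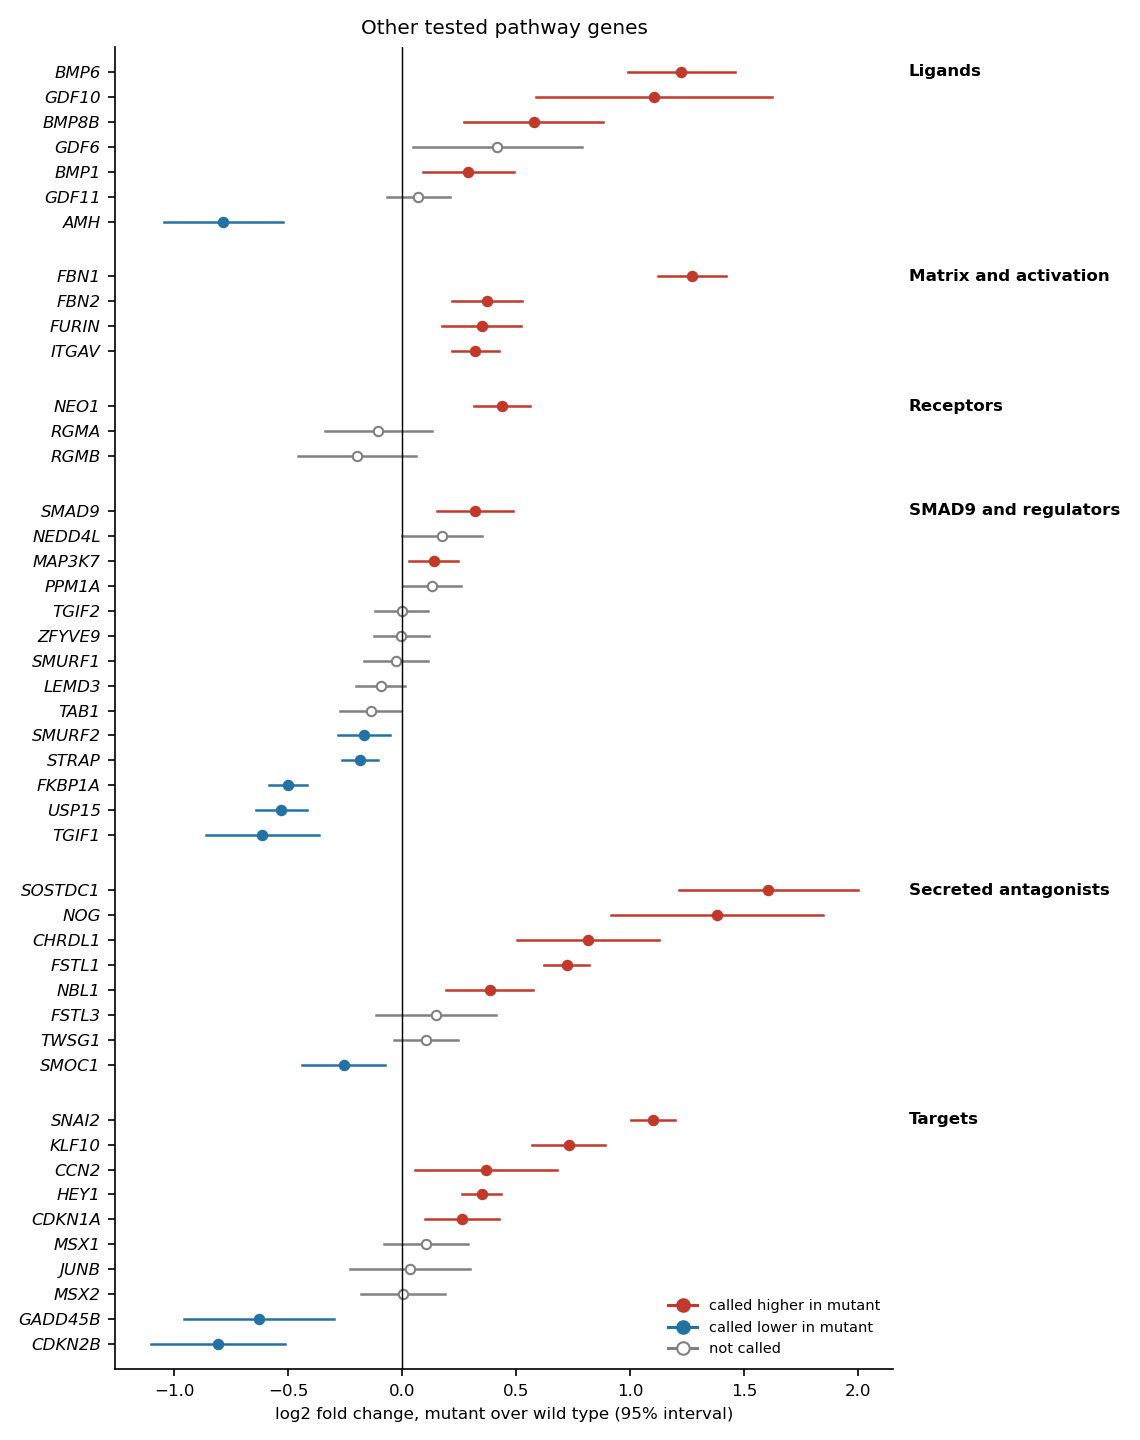
Log2 fold change of the 46 tested genes of the wider list, mutant over wild type, on the horizontal axis with its 95% interval, grouped by role; filled red and blue points passed an adjusted p of 0.05 over all tested genes and open grey points did not. All 4 tested matrix and activation genes lie to the right of 0, and SOSTDC1, at 1.61, lies farthest from it.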

How the data were processed

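Poly(A) RNA of 3 mutant and 3 wild-type HEK293 libraries was measured, grouped by the labels. Per the file headers, the deposited table holds a raw count and an FPKM per gene and library. The submitters' processing notes name cutadapt, HISAT2 2.0.1, HTSeq and the GRCh38 build; no source used here gives the annotation release or the strand setting. The deposited FPKM were matched within 0.005 by values recomputed from counts and gene lengths. Genes averaging 1 FPKM or more were tested with edgeR 4.0.16 (TMM scaling, quasi-likelihood F-test, two-sided, genotype as the single factor, Benjamini-Hochberg over all genes tested); genes below it were read from the same fit without a filter. Standard errors and 95% intervals come from the fit. The fits were tested on simulated data. limma 3.58.1 and DESeq2 1.42.0 were alternatives.

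The members and lists were chosen with earlier results of these data known. Given by library were members called with a log2 fold change of at least 0.5 in size and, per role, the member with the smallest adjusted p and the most abundant one; others are by values or range. Some genes of the lists are counted but not reported by name here. Of the wider list, up to 8 called genes with the largest changes and groups apart were named. No 2 libraries of a group were duplicates (chi-square per degree of freedom at least 2.49).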

Additional observations from a re-analysis of the deposited data

How the results depend on the processing

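None of the 19 called genes changed direction in any alternative (312 values), and 14 were called in all of them; TGFB3, TGFBR1, SMAD1, SMAD6 and SMAD7 were not. The counts of 9 higher and 10 lower genes were 8 to 10 and 8 to 11 with 1 library left out. Lower genes numbered 6 with TPM scaling. With the minimum raised to 5 FPKM, where fewer genes were tested, they numbered 4, other pathway genes 12 higher and 2 lower, and all called genes 4597. Of the 6 genes below the minimum, 5 were called without a filter, 3 with DESeq2, TPM scaling or limma with either pseudocount, 1 after quantile normalization, and 3 to 5 with 1 library left out (3 without wild-type replicate 3); the cause was not tested. With the replicate number as a block, 8 genes were higher and 10 lower, and 7069 genes in all were called against 7284; same-numbered libraries did not deviate together (r of 0.02, -0.06 and -0.05 across genes), so the numbers do not pair them. That block changed no call of the genes described here except that of TGFBR1.

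Signs turned only for genes that were not called. These were BMPR2 (0.0281 with TPM scaling, 0.0114 at a minimum of 5 FPKM, -0.128 to 0.0479 with 1 library left out), SMAD2 (0.0112 with library totals as scaling, 0.0302 with TPM scaling, 0.0087 and 0.0127 in limma with pseudocounts of 1 and 0.1, -0.11 to 0.0407 with 1 library left out), SMAD3 (0.0188, 0.0357, 0.0090 and 0.0113 in the same settings, -0.0694 to 0.0625), ACVR1 (-0.0663 after quantile normalization), ACVR2A (0.0009 with TPM scaling), ACVR1B (-0.0161 without a filter, -0.0032 to 0.0543 with 1 library left out), LTBP3 (-0.0533 after quantile normalization, -0.11 to 0.26 with 1 library left out) and INHBA (-0.0634 to 2.22 with 1 library left out). TPM scaling moved the median of all tested genes to 0.0583, farther than the other scalings. The 6 genes below the minimum rest on 15 to 495 counts in all libraries, which limits their precision.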

Other observations

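Of the 78 further pathway genes, 32 stayed below the minimum, and 25 of these had at least 10 counts in all. In the fit without an expression filter, 8 of the 25 were called higher in the mutant, 1 lower and 16 not. Of all 32852 genes in that fit, 27.3% were called in either direction. That share covers every gene with any count, not only those with at least 10, so it is not a like background for the 25. The genes named here were chosen after their values were seen. ITGB8 and LRRC32 (GARP), which encode an integrin chain that frees TGF-beta and a membrane anchor of latent TGF-beta, both rose, while THBS1, DCN and NRROS of the same role were not called. LRRC32 had 0.450, 0.550 and 0.620 FPKM in the mutant, against 0.240 to 0.250 FPKM in the wild type (log2 fold change 1.04, adjusted p = 0.00126). ACVR1C (ALK7), a type I receptor for nodal and activin B, had 1.21, 1.00 and 1.37 FPKM in the mutant and 0.480 to 0.680 FPKM in the wild type (log2 fold change 1.04, adjusted p = 1.45e-11). INHBB, the activin B chain, rose by 0.90 (adjusted p = 0.00616), and MSTN, or myostatin, by 1.65 (adjusted p = 6.90e-04). CHRD and RUNX2 were also called higher, and the lower one was BMP8A. None of the groups of ITGB8, LRRC32, ACVR1C, INHBB and MSTN overlapped, while those of RUNX2 did. The share of all genes below the minimum whose groups lie apart was not computed.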
